A study of Mus musculus with 4 samples.

Results

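Olfactory receptor gene regions were followed in intestinal genomic DNA of mice of the inbred strain C57BL/6, aged 3 or 32 months. The members are all autosomal probes whose gene name in the array files begins with Olfr and a number, and neighbouring probes of one name at most 1000 bp apart were joined into a region. This gave 805 regions of 797 gene names from 3382 spots, out of 18492 autosomal regions of 16949 names from 79904 spots. The study asked how DNA methylation differs between young and old intestine, and hybridised the DNA to 2 custom Agilent arrays of oligonucleotide probes in and near gene promoters. Both arrays paired DNA of 3-month mice in Cy3, read as green, with DNA of 32-month mice in Cy5, read as red. Each held 1 sample of either age, and the dyes were never swapped. Each difference between the ages is therefore a difference between single samples that cannot be told apart from a difference between dyes, and no test between ages was possible. The sources used here do not give the sex of the mice, how many animals a sample holds, how DNA was selected by its methylation, or the genome build. Array 1 held 386 olfactory receptor regions of chromosomes 1 to 8 and of the first cluster of chromosome 9, and array 2 held the other 419. A region had a median of 4 probes, between 1 and 8, and a median width of 918 bp.

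Olfactory receptors are G protein-coupled receptors that detect odorants at the cilia of sensory neurons in the nose. Each such neuron normally expresses one receptor allele from a very large gene family, whose genes lie in tandem clusters on many chromosomes, and the unchosen genes stay packed in silent chromatin. Their promoters are typically rich in A and T and lack CpG islands, so these genes hold few of the CpG dinucleotides at which mammalian DNA is methylated. A small number of family members have been described outside the nose, among them receptors for short-chain fatty acids in gut and kidney.

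The probes below carry the results that follow, and CpG dinucleotides are in capitals. Positions are those of the array files, without a stated build. The brightest receptor region, Olfr368 at chr2:37153432-37154027, had 4 probes, given in order along the chromosome.
Olfr368 probe 1: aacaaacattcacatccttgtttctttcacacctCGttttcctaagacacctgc
Olfr368 probe 2: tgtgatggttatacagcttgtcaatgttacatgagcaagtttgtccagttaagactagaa
Olfr368 probe 3: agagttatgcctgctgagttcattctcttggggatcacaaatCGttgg
Olfr368 probe 4: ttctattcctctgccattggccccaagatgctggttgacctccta
The second of these lies in the promoter that RefSeq gives for the gene in assembly GRCm38.p6, at chr2:37331499-37331798 on the plus strand. In that window of 300 bases the stretch of the probe is in capitals.
Olfr368 promoter: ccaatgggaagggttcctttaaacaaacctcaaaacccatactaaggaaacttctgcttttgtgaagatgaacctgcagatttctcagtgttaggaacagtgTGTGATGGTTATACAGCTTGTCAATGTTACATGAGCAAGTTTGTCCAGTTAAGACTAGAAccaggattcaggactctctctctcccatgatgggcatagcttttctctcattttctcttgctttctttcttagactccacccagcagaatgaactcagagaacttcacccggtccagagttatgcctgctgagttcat
A further probe shows an extreme AT-rich dark sequence, from Olfr386 at chr11:73418683-73418742. It has 16.7% GC, where receptor probes had a median of 31.7%. The last 2 had the widest difference between the ages in 2 called regions. They are from Olfr1370 at chr13:21080444-21080503 and Olfr1513 at chr14:51272307-51272366.
Olfr386 probe 3: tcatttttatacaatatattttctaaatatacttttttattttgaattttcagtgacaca
Olfr1370 probe 1: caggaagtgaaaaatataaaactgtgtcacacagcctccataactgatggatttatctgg
Olfr1513 probe 1: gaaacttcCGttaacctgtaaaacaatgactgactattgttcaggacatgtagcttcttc

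Most olfactory receptor probes gave no signal well above background at either age. On array 1, 26.7% of them were well above background at 3 months and 27.8% at 32 months, by the flag of the scanner software. For all other autosomal probes of that array the shares were 73.0% and 74.4%. On array 2 the olfactory receptor shares were 37.2% and 30.4%, against 73.4% and 72.7% of other probes. The negative control spots, which match no mouse sequence by design, carried the flag in 8.53% and 8.73% of spots on array 1 and in 12.2% and 11.8% on array 2. Over both arrays 64.1% of olfactory receptor probes were well above background in neither channel, against 22.7% of other autosomal probes. The median processed signal of olfactory receptor probes was 64.9 at 3 months and 65.4 at 32 months on array 1, where negative controls had medians of 63.2 and 63.9. On array 2 it was 66.5 and 59.2, beside 62.9 and 55.2 for negative controls. The medians of other autosomal probes were 327 and 325 on array 1 and 191 and 184 on array 2. For 68.0% of olfactory receptor probes at 3 months and 70.7% at 32 months the scanner software had replaced a signal indistinguishable from background by a surrogate value. Ratios between such spots say little about the DNA.

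On array 2 fewer olfactory receptor probes were detected at 32 than at 3 months, and on array 1 slightly more were by the scanner flag. With the 95th percentile of negative controls as the limit the array 1 direction turned, to 24.35% at 3 months and 23.3% at 32 months, and array 2 gave 24.97% and 22.6%. On array 2, 11.6% of the probes were well above background at 3 months only and 4.78% at 32 months only. On array 1 these shares were 1.90% and 3.02%. The same tilt appeared in the AT-rich probes of other genes. Among other autosomal probes of array 2 with under 30% GC, 23.0% were above background at 3 months and 12.4% at 32 months, and among olfactory receptor probes of that GC range 19.5% and 7.50%. On array 1 the same range gave 5.64% and 6.78% for other probes and 1.26% and 1.83% for olfactory receptor probes. The part of dye, array and age in this tilt cannot be told apart, since the green dye always carried the younger DNA.

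The low detection went with the base composition of the probes. Olfactory receptor probes had a median GC content of 31.7%, against 42.6% for other autosomal probes. Probes were 60 bases long, the longest length of the design, in 83.5% of olfactory receptor spots and in 33.9% of other spots. Detection of olfactory receptor probes rose steeply with GC. On array 1 at 3 months it was 11.0% at 30 to 35% GC, 45.1% at 35 to 40%, 81.7% at 40 to 45% and 98.5% at 45 to 50%, and all 16 probes of 50% GC and over were detected at both ages. For other autosomal probes in the same 4 ranges it was 19.9%, 55.6%, 86.9% and 98.1%. Within a GC range the receptors thus lay much closer to other genes than over all probes, still below them up to 45% GC and level with them above. Array 2 gave the same order, with 30.9%, 46.5%, 73.6% and 93.2% for olfactory receptor probes and 35.5%, 59.3%, 78.8% and 91.6% for others at 3 months. Restricting both sets to probes without a CpG left the values almost where they were, for example 86.0% and 88.3% at 40 to 45% GC on array 1.

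**Figure D1:**
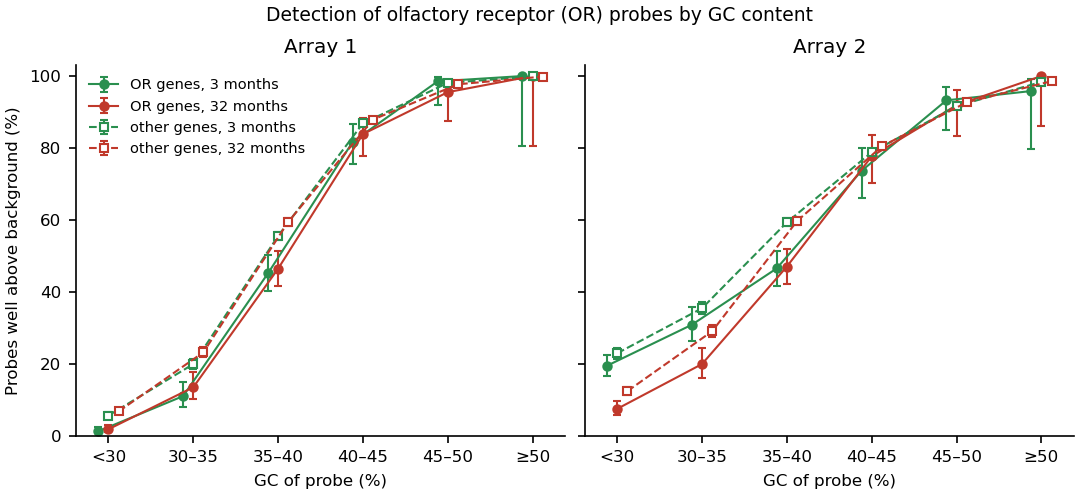
Share of probes well above background (percent) in 6 ranges of probe GC content (percent), for olfactory receptor genes (filled circles, solid lines) and other autosomal genes (open squares, dashed lines) at 3 months (green) and 32 months (red), array 1 on the left and array 2 on the right. Bars are 95% Wilson intervals, which cover counting error only. All 4 lines of each panel climb from below 25% under 30% GC to above 95% at 50% GC and over.

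Probes inside the receptor genes were detected more often than probes in their promoters. Of 613 inside probes 59.9% were well above background at 3 months and 59.7% at 32 months. Of 2696 promoter probes it was 26.1% and 22.6%. The single coding exon of an olfactory receptor is less AT-rich than its flanks, and the median GC was 38.3% for inside and 30% for promoter probes. In other autosomal genes 81.4% of inside probes and 69.2% of promoter probes were detected at 3 months, with a median GC of 46.8% and 41.1%.

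Few CpG sites lay under the probes. A mean of 0.184 CpG per olfactory receptor probe compared with 0.967 per other autosomal probe, and 83.9% of olfactory receptor probes held none, against 45.1%. No olfactory receptor probe held more than 3, and 6 of 3382 held 3. Of the other probes 10.8% held 3 or more. The motif CCCGGG, which reads the same on both strands, occurred in 0 of the 3382 olfactory receptor probes and in 238 (0.311%) of the other probes. The RefSeq promoters of assembly GRCm38.p6, from 250 bases before to 50 after each start, told the same of the genes themselves. The 938 olfactory receptor promoters held a mean of 1.28 CpG and a median GC of 35%, and 33.6% of them held no CpG. The other 30458 autosomal promoters held a mean of 12.95 CpG at a median GC of 53.3%, and 4.37% held none. CCCGGG occurred in 4 olfactory receptor promoters (0.426%), those of Olfr623, Olfr648, Olfr974 and Olfr99, and in 13.8% of all autosomal promoters. The promoter of Olfr368 shown above held 1 CpG in 300 bases and no CCCGGG. Symbols of 654 of the 800 receptor genes named on the arrays had a promoter in the table, and 583 probes of 494 genes matched the promoter of their own gene letter for letter.

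Seen by region, 364 of 805 olfactory receptor regions (45.2%) were measured, meaning that at least 2 probes were well above background at one age or both. Of the other autosomal regions 81.8% were. In 190 olfactory receptor regions (23.6%) no probe rose well above background at either age, against 3.01% of other regions. In 36 regions (4.47%) every probe was well above background at both ages, against 35.1%. Only 17 of these 36 had at least 2 probes, and the rest were single spots. Of the 6216 such regions of other genes 4917 had at least 2 probes without an outlier flag. A median 3-month signal above 1000 was reached by 12 olfactory receptor regions (1.49%) and by 20.8% of the others. Within a region of at least 3 spots the brightest exceeded the dimmest by a median of 2.77-fold at 3 months over 669 receptor regions, and by 20.1-fold over 14141 other regions. The brightness of a spot depends on the sequence of its probe as well as on the DNA, so these levels describe groups of spots.

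Other chemosensory receptors of the vomeronasal organ had values close to these. The vomeronasal receptor regions had 32.2% of probes detected at 3 months and 28.1% at 32 months, beside 32.0% and 29.1% for olfactory receptors over both arrays. Their median GC was 30% and their mean CpG count 0.165. Taste receptors had 35.9% and 34.4% detected over 35 regions, and trace amine receptors, a small family of amine detectors in the nose, 50% and 41.4% over 16 regions. Of 192 taste receptor probes 188 lay on array 1, where olfactory receptors had 26.7% and 27.8%. All 70 trace amine probes lay on array 2, where olfactory receptors had 37.2% and 30.4%. The keratin-associated proteins of hair, another tandem family, had 43.4% and 39.5% over 22 regions, with 70 of 76 probes on array 2. Defensins, the antimicrobial peptides made by Paneth cells and other epithelia, had 64.6% and 61.5% over 29 regions, with 91 of 96 probes on array 1. Their probes had a median GC of 40.2%.

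The olfactory receptor regions fell into 45 clusters when neighbours at most 1 Mb apart were grouped, and the 28 clusters with at least 5 regions held 780 of the 805. Chromosome 7 held the most regions, 158 (19.6%), followed by chromosome 9 with 127 and chromosome 2 with 123. In these 28 clusters the median signal lay between 63.5 and 178 at 3 months and between 56.1 and 163 at 32 months. Some smaller groups were brighter, such as Olfr161 and Olfr15 on chromosome 16, with a joint median of 563 and 539. The dimmest large cluster was that of chromosome 2 from Olfr998 to Olfr1272, at chr2:85390645-90084201, with 90 regions. There 12% of probes were well above background at 3 months and 13.9% at 32 months, the median GC was 26.7%, and 51 of the 90 regions had no probe above background. The cluster of 94 regions on chromosome 9 from Olfr151 to Olfr986, on array 2, had 38.9% and 31.9% at 31.7% GC, while the cluster of 33 regions from Olfr24 to Olfr873 on the same chromosome, on array 1, had 14.5% and 17.8% at 29.2% GC. The 65 regions of chromosome 7 from Olfr543 to Olfr691, which include the fatty acid receptor gene Olfr78, had 28.1% and 29.7% at 31.7% GC.

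Among the clusters of at least 5 regions, the one with the most detected probes was a group of 8 regions on chromosome 1 from Olfr1416 to Olfr12, at chr1:94311069-94450269, with 82.1% at 3 months and 76.9% at 32 months. Its probes had a median GC of 42.6% but only 0.077 CpG each. All 8 regions were measured, with log2 ratios between -0.27 and 0.031. Next among these 28 came clusters on chromosome 4 from Olfr70 to Olfr157, with 66.7% and 70.4%, and on chromosome 15 from Olfr285 to Olfr234, with 66.7% and 62.5%. Across the 28 clusters the share detected at 3 months ran with median GC, at a Pearson correlation of 0.908 and a Spearman correlation of 0.856. The clusters share libraries and arrays, so this is a description. Detection was lower at 32 than at 3 months in 11 of the 13 clusters of array 2 and in 4 of the 15 of array 1. The widest gap was that of the 25 regions from Olfr173 to Olfr209 on chromosome 16, with 29.9% at 3 months and 12.6% at 32 months.

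**Figure D2:**
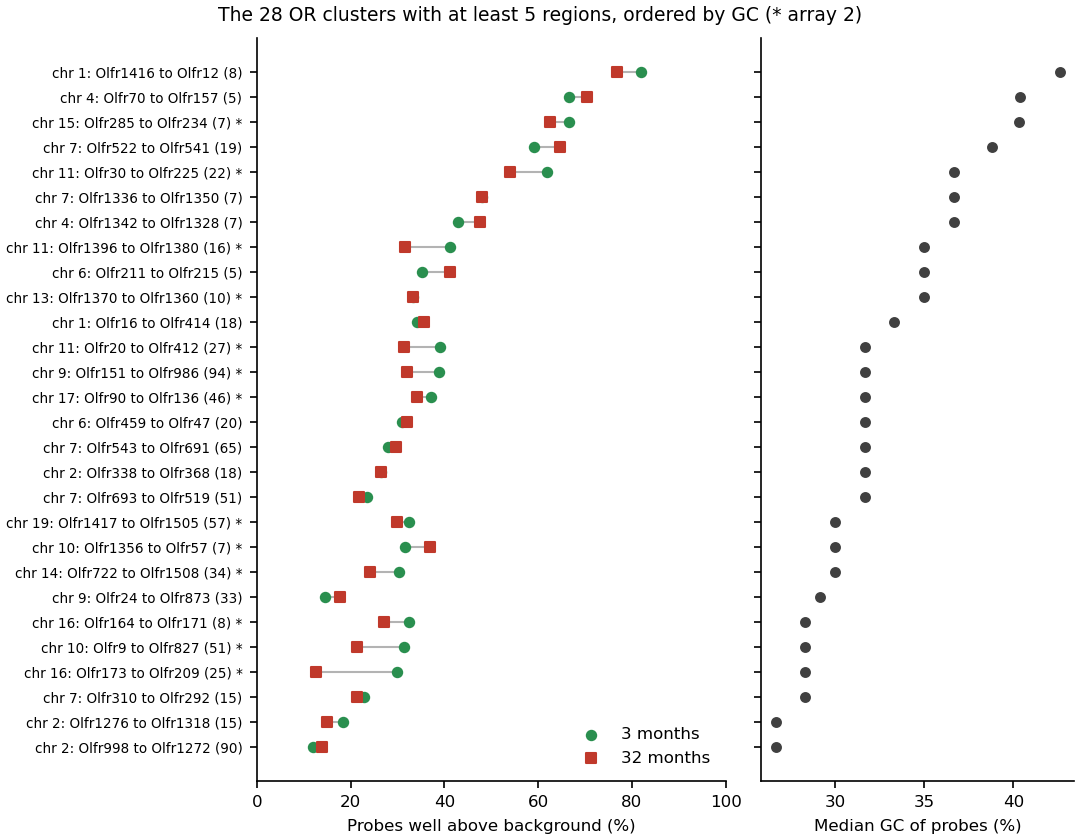
Left, share of probes well above background (percent) at 3 months (green circles) and 32 months (red squares) in each of the 28 olfactory receptor clusters, named by chromosome and by first and last gene, with the number of regions in brackets and array 2 marked by an asterisk. Right, median GC of the probes of each cluster (percent). Clusters are ordered by GC from 26.7% at the bottom to 42.6% at the top, and the shares rise with it.

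Receptor regions close to an array region of another family were detected more often than those far from one. Among the 45 regions under 20 kb from the nearest region of another gene, 47.6% of probes were well above background at 3 months and 45% at 32 months, at a median GC of 36.7%. Among the 249 regions at 300 kb and over from the nearest such region, the shares were 21.9% and 19.3% at 28.3% GC. The mean CpG count fell from 0.387 to 0.140 per probe over the same range. The part of GC in this gradient was not tested separately from distance.

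Against this dark background, 17 spots of 14 receptor genes reached a processed signal of 10000 at one age or both. They were singled out after their values were seen. Of the 17, 11 held no CpG, 8 lay inside genes, and their median GC was 46.7%. In 10 of them the other probes of the same region all stayed under 1000 at both ages, and 2 were the sole probe of their region, those of Olfr212 and Olfr54. Apart from Olfr368, none of these bright spots differed 2-fold between the ages: their log2 ratios lay between -0.45 for Olfr139 and 0.76 for Olfr523. The spot of Olfr523, inside the gene at chr7:140027539-140027587, had 144000 at 3 months and 245000 at 32 months, while the other 4 probes of that region lay between 141 and 975 and between 129 and 969.

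The brightest olfactory receptor spot of all belonged to Olfr1423, at chr19:12104135-12104194, with 438000 at 3 months and 395000 at 32 months and a log2 ratio of -0.0098. The other 3 probes of that region were dark, between 62.1 and 72.7 at 3 months and between 53.1 and 63.8 at 32 months. Its probe holds a run of the GT dinucleotide, a common simple repeat of mammalian genomes, and so does a bright probe of Olfr267 at chr4:58879889-58879948, on the other strand as CA. The repeat was noticed after the values were seen. The runs are in capitals.
Olfr1423 probe: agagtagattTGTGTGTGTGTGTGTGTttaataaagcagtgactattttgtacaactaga
Olfr267 probe: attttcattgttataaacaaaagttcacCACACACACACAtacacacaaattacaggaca
Olfr267 had 31000 and 23900 at this spot, with its other 4 probes between 53.4 and 69.3. These are the only 2 olfactory receptor probes with at least 5 GT units in a row on either strand, counting GT, TG, AC and CA runs of 10 bases, and both are among the 17 bright spots. Of 2865 olfactory receptor probes with under 40% GC and no such run, 1 reached 10000 at 3 months. Among other autosomal genes 74 probes (0.0967%) held a run of 10 bases, with a median signal of 6355 at 3 months, and 28 of them (37.8%) reached 10000. In those below 40% GC, 5 of 24 did (20.8%), against 1.08% of probes without a run. All 5 probes of other genes with a run of 16 bases reached it, the lowest at 71000.

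Between the ages the measured olfactory receptor regions differed little. Each ratio is log2 of 32-month over 3-month signal, less the median of the array, so positive values are higher at 32 months, and a region takes the median of its usable probes. The median over the 364 measured regions was -0.041, with quartiles of -0.29 and 0.17, and 164 regions lay above 0 and 200 below. It was 0.0048 on array 1 and -0.089 on array 2. Other autosomal regions had medians of -0.033 and 0.094 on the same arrays. Thus the olfactory receptors sat slightly above the others on array 1 and slightly below them on array 2. These sets differ in brightness. Among measured regions with a geometric mean signal under 100, receptors and others had 0.012 and 0.0024 on array 1. On array 2 they had -0.11 and -0.0098. The sign of the receptor median over both arrays turned to 0.015 when only probes well above background at both ages were used, over 229 regions. By cluster the medians ran from -0.29 to 0.20 and lay below 0 in 18 of 28, with 10 of 13 on array 2 and 8 of 15 on array 1. Some of these medians rested on few measured regions. The cluster from Olfr1356 to Olfr57 on chromosome 10 had 1, and that from Olfr211 to Olfr215 on chromosome 6 had 2. Over all regions, measured or not, signals at the 2 ages correlated with a Pearson r of 0.983 and a Spearman rho of 0.870 on array 1 (n = 386). On array 2 (n = 419) these were 0.957 and 0.756. This describes regions that share 1 array, and only 143 and 221 of them were measured. The rest had at most 1 usable probe, so these correlations say little about the DNA.

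**Figure D3:**
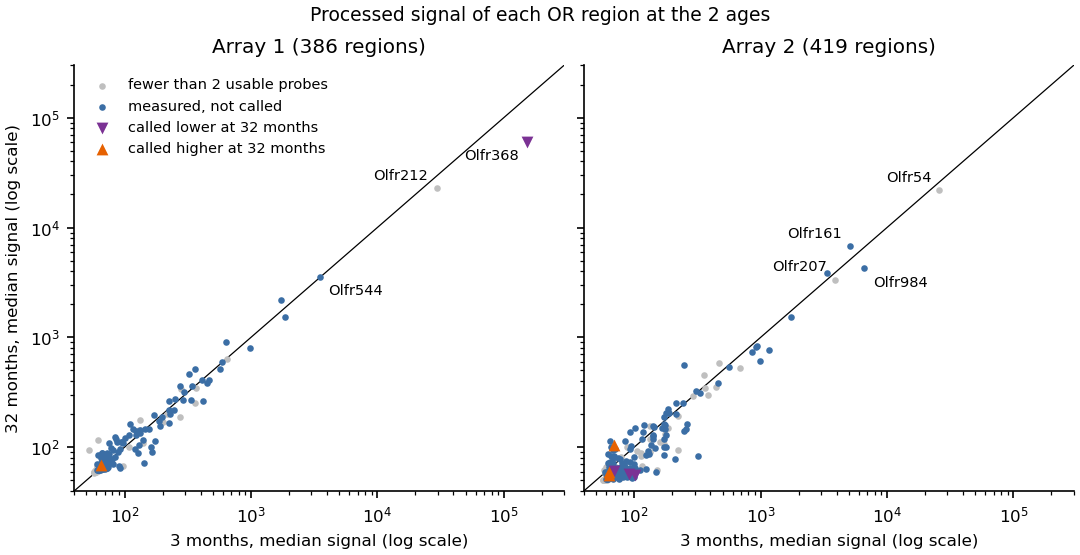
Median processed signal of each olfactory receptor region at 3 months (horizontal, log scale) and 32 months (vertical, log scale), on array 1 (left, 386 regions) and array 2 (right, 419 regions). Grey points had fewer than 2 usable probes, blue points were measured without a call, purple triangles were called lower and orange triangles higher at 32 months, and the line marks equal signal. Most points crowd at the background near 60, and Olfr368 lies apart at 153000 and 60600.

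Among olfactory receptor regions the ratio spread widest where the signal was weakest. Of the 364 regions 264 had a brightness under 100, taken as the geometric mean of both channels, and their ratios had an SD of 0.42, a spread over regions. The SD was 0.32 over the 72 regions between 100 and 300 and 0.19 over the 22 between 300 and 1000. Over the 5 regions between 1000 and 10000 it was 0.30, and the 1 region above that was Olfr368. Other autosomal regions spread widest at the bright end. Their SDs were 0.36 under 100, 0.32 at 100 to 300, 0.38 at 300 to 1000, 0.67 at 1000 to 10000 and 1.5 at 10000 and over. In 79 olfactory receptor regions at least 3 probes were well above background at both ages. Their median ratio was -0.022, 76 of them lay within 0.5 of 0, the highest was 0.63 and the lowest was Olfr368 at -1.31. Regions that stood above background at only 1 age could not enter this set. Its closeness to 0 is therefore partly set by the choice.

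**Figure D4:**
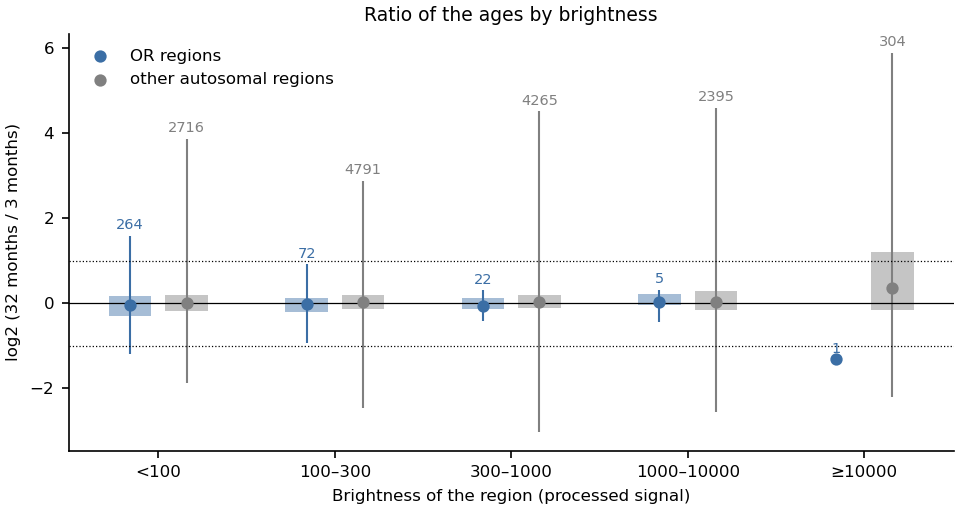
Log2 ratio of 32-month over 3-month signal in 5 ranges of region brightness (processed signal), for olfactory receptor regions (blue) and other autosomal regions (grey). Points are medians, boxes quartiles, lines run from lowest to highest, numbers count regions, and dotted lines mark the 2-fold threshold. The olfactory receptor range narrows as brightness rises up to 1000, and 1 region, Olfr368, stands alone at 10000 and over.

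A region was called when its median ratio was at least 2-fold with every usable probe on that side of 0. By this rule 4 of the 364 olfactory receptor regions were called higher at 32 months (1.10%) and 4 lower (1.10%). Over all 14835 measured autosomal regions, of any brightness, 2.05% were called higher and 0.519% lower. Against this pooled background the receptors' share lay below among higher calls and above among lower calls, on counts of only 4. At like brightness this differed. Under 100, 4 of 264 receptor regions were called higher and 3 lower, against 17 and 10 of 2716 other regions. There the share called either way was 2.65% for receptors and 0.994% for others. Single spots over all ranges of brightness tilted as the pooled regions did. Of 1213 usable olfactory receptor spots 35 (2.89%) were at least 2-fold higher and 55 (4.53%) at least 2-fold lower at 32 months, against 6.5% and 3.04% of other usable spots. Usable spots include those well above background at 1 age only, which lean towards that age. These were 228 receptor spots at 3 months and 132 at 32 months, against 2876 and 3151 other spots. The tilt of the receptor spots is thus partly set by the filter. At least 4-fold differences were found in 6 receptor spots higher (0.495%) and none lower, against 2.03% and 0.399% of other usable spots. Of the 8 calls 7 fell in the range of brightness under 100 and rested on 2 usable probes each, and the eighth was Olfr368.

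Olfr368 had a lower signal at 32 months in each of its 4 probes. At 3 months the probes read 43900, 136000, 170000 and 182000 in chromosomal order, and at 32 months 29100, 58300, 62900 and 69000. The log2 ratios were -0.60, -1.23, -1.44 and -1.40, and their median of -1.31 is a 2.49-fold difference. All were well above background at both ages, none was saturated, and they lay in rows 243, 12, 472 and 24 of the array, so neighbours on the chromosome were not neighbours on the slide. Probes 1 and 2 are annotated as promoter and 3 and 4 as inside the gene, and the decrease was smallest at the outermost promoter probe. The region ranked 31 of 9534 on array 1 by brightness. It is the last gene of its cluster, 27.0 kb from Pdcl, which encodes a phosducin-like chaperone and had 163.5 at 3 months and 136.5 at 32 months. The nearest receptor on the array, Olfr365 at 131 kb, was at background with 61.9 and 64.3. After normexp correction of the mean signals the median of Olfr368 was -0.79, short of the threshold, and the call ended. Among the 304 other autosomal regions of its brightness range 70 were called higher and 10 lower.

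The other 3 lower calls were small differences in dim spots of array 2. Olfr1513, on chromosome 14, had signals of 138, 57.6, 142 and 66.2 at 3 months and 54.9, 49.7, 57.7 and 60.3 at 32 months. Probes 1 and 3, each with 1 CpG, had ratios of -1.19 and -1.16, and probes 2 and 4, without CpG, were at background at both ages. Probe 3 was not well above background at 32 months. Olfr205, on chromosome 16, had 118 and 159 in its usable probes at 3 months and 57.9 and 59.1 at 32 months, with a median ratio of -1.09. Olfr1390, on chromosome 11, had 99.2 and 243 at 3 months and 61.1 and 62.9 at 32 months, a median of -1.19. Probe 1 of Olfr205 and both usable probes of Olfr1390 were likewise not well above background at 32 months, where the signal is a surrogate. The ratios of these probes, and the medians of the 3 regions that rest on them, are therefore only bounds. With the dim probes of each region kept in, the medians of Olfr1513, Olfr205 and Olfr1390 were -0.62, -0.46 and -0.063, and none was called.

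The 4 higher calls, too, rested on 2 usable probes beside dark ones. In Olfr1370, on chromosome 13, the first probe inside the gene rose from 454 to 2280, a log2 ratio of 2.47, the second went from 62.2, at background, to 90.8, and the other 4 stayed between 49.4 and 72.9 at both ages. In Olfr401, on chromosome 11, the probe inside the gene read 123 at 3 months and 756 at 32 months, at 2.76, and its partner stood at 63.5 and 57.8 with a ratio of 0.0036, just on the side that the rule needs. In Olfr663, on chromosome 7, the probe inside the gene went from 57.7, at background, to 281, and a promoter probe from 87.3 to 130. Olfr1424, on chromosome 19, had usable probes of 68.9 and 89.0 at 3 months and of 105 and 245 at 32 months, for a median of 1.17. In Olfr1370, Olfr401 and Olfr663 1 usable probe was not well above background at 3 months, so its ratio and the region's median are bounds. The medians of the 4 regions were 1.58, 1.38, 1.43 and 1.17 over usable probes. Over all their probes they were -0.014, -0.041, 0.057 and 0.75. The 3 largest of these rises thus rested on a probe inside the gene, without any CpG in its sequence.

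**Figure D5:**
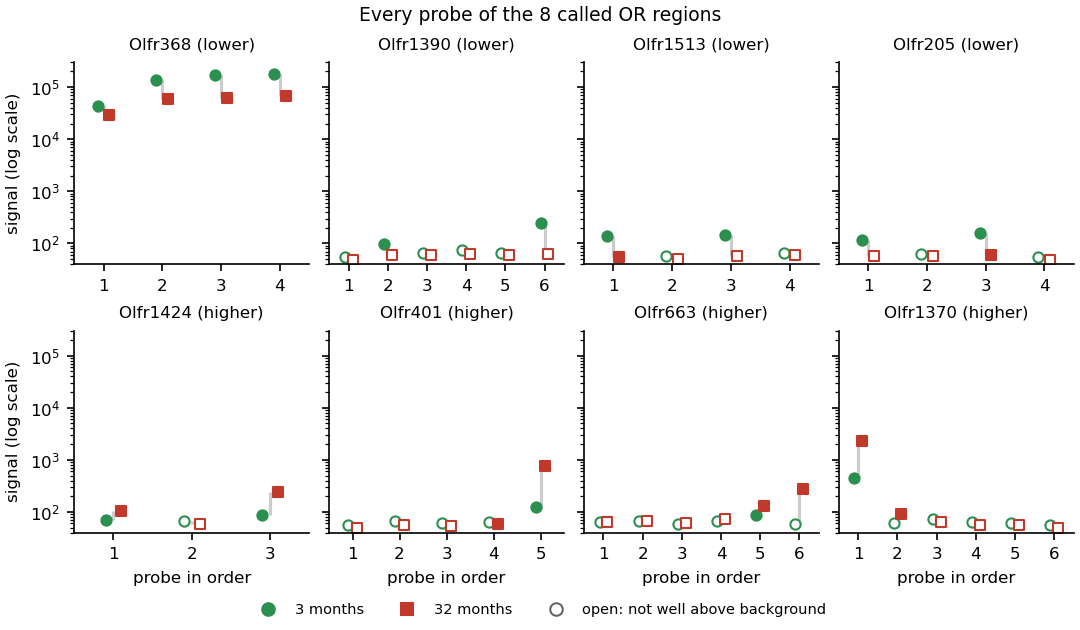
Processed signal (log scale) of every probe of the 8 called olfactory receptor regions in chromosomal order, at 3 months (green circles) and 32 months (red squares), with open symbols for spots not well above background. Olfr368 is bright in all 4 probes, between 29100 and 182000, while each of the other 7 regions rests on 2 usable probes and has between 1 and 4 that are open at both ages.

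Some regions missed a call narrowly. Olfr316, on chromosome 11, had a median of 1.58 over 2 usable probes, but the lower stood at -0.074. Its other probe read 66.8 at 3 months, at background, and 571 at 32 months, so its ratio of 3.23 is only a bound. Olfr44 had a median of -1.0 over 3 probes with 1 at 0.41, Olfr2 -0.99 over 3 probes and Olfr1120 0.99 over 2. In Olfr2 the probes at -0.99 and -1.05 were not well above background at 32 months, so its median is only a bound. A further pair of spots was at least 4-fold higher without their region being called, in Olfr516 from 70.1 to 639 and in Olfr697 from 106 to 712.

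Receptors known outside the nose, or from classic work on odour coding, were followed by name. Of 19 such genes 13 were among the regions, and the other six were not analysed here. Olfr78, a receptor for short-chain fatty acids described in kidney and gut, had 497 at 3 months and 389 at 32 months in 1 promoter probe with a CpG, and its 3 other probes stayed between 62.3 and 64.4 at both ages. Olfr544, a receptor for azelaic acid described in fat and other tissues, was among the brightest regions. Its probes read 67.2, 6590, 418 and 19500 at 3 months and 67.5, 6700, 430 and 19100 at 32 months, none of them with a CpG, and its median ratio was 0.020. Olfr16, also known as MOR23 and described in muscle and sperm, was at background with a region median of 65.3 and 64.7. Olfr691, on the same chromosome as Olfr78, had a median of 91.1 and 68.0 and a ratio of -0.21 over 4 usable probes. The kidney receptor Olfr1393 had 66.2 and 54.9, with 1 probe above background at 3 months and none at 32 months. Olfr2, the receptor for octanal known as I7, had 91.6 and 64.9 and came nearest to a call, with a median that is only a bound, as given above. Olfr151, the acetophenone receptor M71, had 145 and 97.9 with probe ratios from -1.27 to 1.25. The probe at -1.27 was not well above background at 32 months, so that ratio is a bound. Olfr15 had 563 and 539 with all 3 probes above background at both ages and a ratio of 0.076. The remaining 5 of these genes, Olfr43, Olfr49, Olfr90, Olfr920 and Olfr1386, had region medians between 61.8 and 85.1 at 3 months and between 52.8 and 113 at 32 months. In Olfr43 the probes at positions 3 and 5 stood out, with 1190 and 3240 at 3 months and 1350 and 2710 at 32 months.

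Among the other bright regions of at least 3 probes, the probes of a region spanned a wider range than the ages. Olfr311, on chromosome 11, had 144, 1750 and 2810 at 3 months and 191, 1520 and 2970 at 32 months. Olfr532, on chromosome 7, had 564, 3180, 1740, 2250 and 70.8 at 3 months and 498, 2610, 3750, 2200 and 97.4 at 32 months. Probe 3 alone was more than 2-fold higher at 32 months, at 1.10, and the region median was -0.037. In Olfr412, the brightest region of its chromosome 11 cluster, probe 4 inside the gene read 3330 at 3 months and 1360 at 32 months, at -1.15, while probe 3 went from 93.4 to 169, at 0.99, and the region median was -0.41. Olfr825, on chromosome 10, had 5700, 417 and 602 in its usable probes at 3 months and 7620, 447 and 722 at 32 months. Olfr648, 1 of the 4 receptor genes with CCCGGG in its RefSeq promoter, had probe ratios from -0.48 to 1.19 and a median of 0.28 over 4 usable probes. Olfr324 had a median of -0.034 over 5 usable probes. The 4 dimmest regions, Olfr804, Olfr908, Olfr130 and Olfr386, all on array 2, had medians between 56.6 and 59.9 at 3 months and between 49.9 and 50.9 at 32 months.

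Genes that act with the receptors were detected far more often than the receptors themselves. A list of 54 genes of olfactory signalling, receptor choice and receptor trafficking had 45 members on the autosomes of the arrays, in 55 regions. Of these regions 52 were measured, 2 were called higher (3.85%) and none lower, near the 2.05% and 0.519% of all measured regions at such a count, and the median ratio was 0.083. Their probes were well above background in 80.4% at 3 months and 80.8% at 32 months, with 1.12 CpG per probe and a median GC of 45.1%. All autosomal probes outside the receptor genes had 73.2% and 73.6%, with 0.967 CpG and 42.6% GC, so the list lay nearer to genes in general than to receptors. Neurog1, a transcription factor of olfactory neuron precursors, was called higher at 1.59 over 5 probes, which ran from 0.066 to 5.44. Its median signal was 2010 at 3 months and 1910 at 32 months. Robo2, an axon guidance receptor that sorts olfactory axons, was called at 2.44 over 4 probes, from 0.35 to 6.63. Its median signals were 135.6 and 158.3. Among signalling genes Gnal, the G protein subunit that couples to the receptors, had 0.18 in its larger measured region and 0.051 in the other, and Cnga4, a subunit of the cyclic nucleotide-gated channel, -0.12 in the promoter it shares with a neighbour. Adcy3, the adenylyl cyclase of the cilia, had 1.11 without a call, with probes from -2.04 to 1.21. Omp, the marker protein of mature olfactory neurons, had -0.13. Of the chaperones that carry receptors to the membrane, Rtp1 had -0.034, Rtp2 0.14 and Reep1 0.052. Lhx2, a homeodomain factor that binds receptor enhancers, had -1.18 without a call, since its highest probe stood at 1.06, and its cofactor Ldb1 had 0.16.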

How the data were processed

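Per the labels' protocols, DNA came from a phenol and chloroform extraction and was labelled as the array's maker prescribes. The submitters' processing notes name Agilent Feature Extraction 9.1.3.1. Intensity was taken from the deposited processed signals, which per the file headers were background-subtracted, detrended, scaled between dyes by a linear factor and, in dim spots, replaced by surrogates. The authors' value table equalled these signals in 100% of spots. Both scanner files of an array were identical, and each channel was used once. The well-above-background, surrogate, outlier and saturation flags are those deposited by the authors' scanner software.

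Control spots were left out, and so were 33 autosomal spots with an outlier flag, none of them in receptor genes. Log2 ratios were centred on the median of each array, 0.0044 on array 1 and -0.14 on array 2. A probe was usable when well above background in at least 1 channel. A region needed 2 usable probes and was called when its median was 1 or more from 0 on the log2 scale and all of them lay on that side. The 23 X-linked receptor spots were left out, as were 2 joint names in which the receptor is second. The calling rule was also run on simulated log ratios with planted shifts and equal noise in every probe. That noise did not vary with brightness and held no surrogate values, so the run cannot vouch for calls in dim regions. The number of arrays and the signal over background limit the precision. Genes named were drawn from all called regions, the 6 brightest and 4 dimmest regions with at least 3 probes, the brightest region of each cluster, regions with 3 or more CpG per probe (none met this), and genes fixed by name, and not every brightest region of a cluster is named. Others, near the threshold, with bright or 4-fold spots, or bounding a cluster, were chosen after their values were seen. The members, lists and alternatives were chosen with earlier results of these data known. Of 800 receptor symbols, 770 were current in RefSeq, 24 were synonyms and 6 were unmatched. Alternatives used normexp correction with an offset of 50 and loess from limma 3.58.1 in R 4.3.3. Other work used Python 3.11.15 with pandas 2.3.3 and scipy 1.17.1.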

Additional observations from a re-analysis of the deposited data

How the results depend on the processing

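No paired analysis was possible because each age had 1 sample per array. For the same reason no replicate could be left out. The 4 higher and 4 lower calls became 0 and 0 after normexp correction, 1 and 1 with probes well above background at both ages, 0 and 1 with dim probes kept and 0 and 1 with at least 3 usable probes. With uncentred ratios 3 regions were called higher and 8 lower, that is 0.824% and 2.20% against 1.60% and 0.708% of all measured regions. At 1.5-fold 9 were called higher and 23 lower, 2.47% and 6.32% against 4.49% and 2.04% of all. Leaving the ratios uncentred moved all of array 2 by -0.14. Under the remaining alternatives (loess, means over probes, joining at 500 or 2000 bp, flagged probes kept) the counts lay between 4 and 5. With dim probes kept Olfr1370 and Olfr401 changed sign, at -0.014 and -0.041. Olfr368 kept its call under 8 of 9 alternatives and lost it after normexp correction, at -0.79, where the cause was not tested. Its 4 probes were all unflagged, close together and well above background at both ages. Keeping dim or flagged probes, requiring both ages above background, or joining at 500 or 2000 bp therefore could not change its median of -1.315. These settings do not test the call. Loess gave -1.46 and the mean over probes -1.17.

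The median ratio of receptor regions lay between -0.096 uncentred and 0.015 for probes well above background at both ages, the one setting with a positive value. Clusters with a median below 0 numbered between 15 and 19 except by whole chromosome, where they were 11 of 14. Counting probes above the 95th percentile of negative controls gave 24.35% and 23.3% at 3 and 32 months on array 1 and 24.97% and 22.6% on array 2, against 70.3%, 69.2%, 64.65% and 65.3% of other probes, which turned the direction between the ages for receptors on array 1. Median receptor signals on array 1 were 123 and 244 after normexp correction, beside 149.8 and 332.5 for other probes. Over probes above background they were 243 and 233.5 on array 1 and 138.5 and 141 on array 2. Receptor probes held 0.19 times the CpG of other probes by count and 0.31 times by observed over expected.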
